A study of Arachis hypogaea with 14 samples.

Results

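Small RNAs were compared between seeds of 2 peanut (Arachis hypogaea) lines at 15 days after flowering (DAF): line 8107, labelled a super-pod variety, and line 8106, labelled a medium-pod variety. Both are recombinant inbred lines, and each pod type is represented by 1 line, so pod size and any other difference between the lines cannot be told apart. All 3 libraries of 8107 and all 3 of 8106 at this stage were taken, 6 of the 14 samples. The same lines at 35 DAF (3 libraries each) entered the fit and are set beside the result, and 2 degradome libraries, 1 for each line with both stages in 1 label, gave cleavage sites. The small RNA table holds 795 different sequences, called entries here, in 3 classes: 273 matched to a known miRNA (known entries), 140 further arms of its hairpins (arms) and 382 candidates predicted from hairpins found in the reads. An entry name opens with a species code for the match, such as ahy for peanut, gma for soybean or mtr for Medicago truncatula. It adds bases added or removed at the 5′ (L) or 3′ (R) end and substitutions (ss), while MIR with p5 or p3 marks an arm and PC a predicted candidate. Values are normalized reads as deposited.

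Plant miRNAs are cut from hairpin precursors, usually as RNAs of 21 or 22 nt (nucleotides), and are loaded into an Argonaute protein. They pair with target messenger RNAs nearly along their whole length, and the target is cut or its translation is held back. Many conserved families act on transcription factors that pattern organs and time growth, others on copper proteins, nutrient transport or immune receptors. In a growing seed, some families that act on transcription factors take part in cell division, cell expansion and the passage from morphogenesis to filling.

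The sequences below are a selection of the entries described in this report, not a ranking, and are shown so that related members can be compared. Some of their calls were lost under other settings. They are given 5′ to 3′ as deposited (T for U), with bases 2 to 8, the seed, in capitals. The first set was higher in 8107 and belongs to families known for copper proteins and laccases, with the peanut miRNA miR3508 last.
ahy-miR398_R+1: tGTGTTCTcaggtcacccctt
mtr-miR398b: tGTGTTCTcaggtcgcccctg
ahy-MIR398-p5_1ss9CA: gGAGTGAAactgagaacaca
mtr-miR397-5p: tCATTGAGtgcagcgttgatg
ahy-miR408-3p: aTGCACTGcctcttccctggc
ahy-miR3508: tAGAGGGTccccatgttctca

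The second set holds members of developmental families that were higher in 8107, together with mtr-miR156e, a form that did not pass the test.
mtr-miR319a-3p_R+1_2: tTGGACTGaagggagctccct
gma-miR319f_R+1: tTGGACTGaaggggcctcttc
gma-miR319d_L+1R-2: tTGGACTGaaggggagctcct
mdm-miR156a_1ss11GA: tGACAGAAgaaagtgagcac
mtr-miR156b-5p: tGACAGAAgagagtgagcac
mtr-miR156e: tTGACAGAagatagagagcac
lja-miR396: tTCCACAGctttcttgaactg
mtr-miR396a-5p: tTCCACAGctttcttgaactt
mtr-miR166a: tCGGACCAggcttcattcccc

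The third set was lower in 8107.
gma-miR482b-3p: tCTTCCCTacacctcccatacc
gma-MIR2118a-p5_2ss2AG20GT: gGGAAGAGcttgaggaagttatg
gma-miR159a-5p_2ss19TA20TA: gAGCTCCTtgaagtccaaaag
mtr-miR395a_L-1: tGAAGTGTttgggggaactc

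The last set holds predicted candidates listed above 0 in the 3 libraries of only one of the lines at 15 DAF, the first pair in 8107 and the third in 8106.
PC-3p-4234_1541: tAATCCATatccgaagcactcg
PC-5p-34874_230: aGTGACTCggatattgattact
PC-5p-119064_59: tATGGTGAagctagtgaattgggt

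The 15 DAF libraries held 604325 to 641690 normalized reads over the listed entries in 8107 and 660450 to 684045 in 8106. Their 2 most abundant entries took 49.0 to 52.4% of the listed reads in 8107 and 58.2 to 60.7% in 8106. Between 42.3 and 54.5% of entries were listed at 0 in an 8107 library and 36.0 to 44.0% in an 8106 library. The lowest value above 0 ran from 2.42 to 4.11 in 8107 and from 2.08 to 2.79 in 8106, so an entry listed at 0 is not shown to be absent. The libraries numbered 2 stood apart in both lines, with 54.5% (8107) and 44.0% (8106) of entries listed at 0 and more reads of 21 nt than the other libraries of their line. In 36 sets of entries, holding 79 sequences, the values were identical in all 12 libraries, so those sequences could not be told apart as molecules.

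Of the 795 entries, 400 did not reach 10 normalized reads in at least 3 of the 12 small RNA libraries and were left out, and the others were tested with limma on log2(value + 1). At 15 DAF 89 of the tested entries passed (22.5%; Benjamini-Hochberg adjusted p under 0.05). In 8107, 62 were higher (15.7% of those tested) and 27 lower (6.84%). In each of the 89 the 3 libraries of one line did not overlap those of the other, while 174 tested entries in all showed no overlap (44.1%; 101 higher, 25.6%, and 73 lower, 18.5%). With the replicate number as a block 145 passed, 91 higher and 54 lower, and the 89 were all among them in the same direction. Same-numbered libraries deviated together, though only weakly for number 3 (r = 0.15). The split by direction depended on the scaling. Higher calls made up 69.7% of the calls as deposited, 76.3% with equal library totals (74 higher, 23 lower), 52.4% under quantile normalization (43 and 39) and 41.0% with median centring (25 and 36). The median log2 difference of all tested entries was -0.09 as deposited and -0.34 with median centring, and no entry called changed sign under any scaling. Of the 62 higher entries 24 passed under all 3 other scalings, and of the 27 lower entries 23 did. Leaving out 1 library also moved the count. Of the 62 and the 27, 28 and 13 passed in all 6 fits that left out 1 library. The count was 42 without replicate 1 of 8106, 47 without replicate 3 of 8106, 51 without replicate 2 of 8107 and 52 without replicate 3 of 8107.

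**Figure D1:**
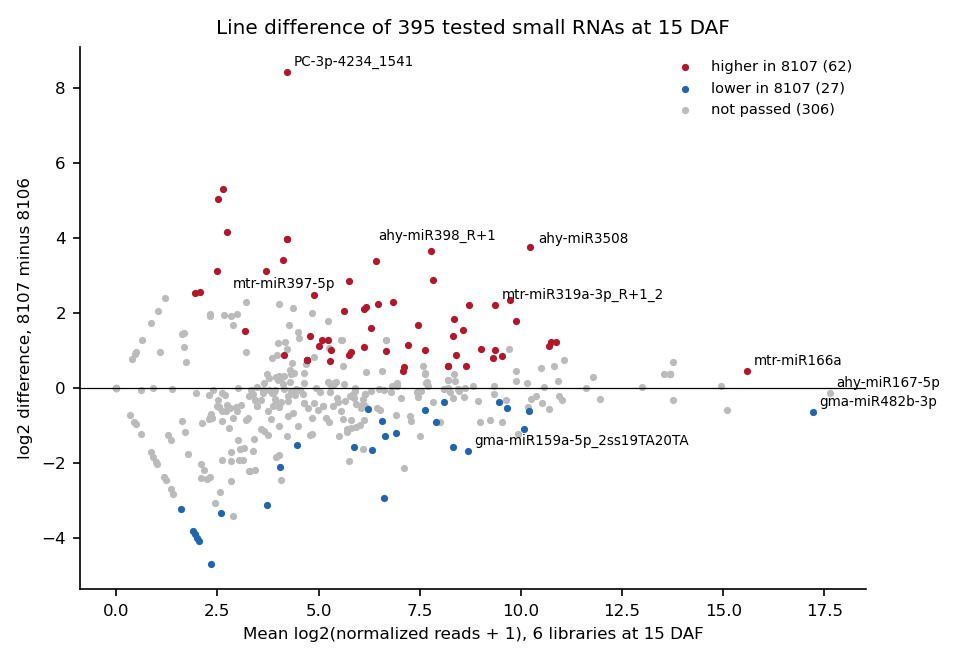
The log2 difference of each tested entry (8107 minus 8106, vertical axis) is plotted against its mean log2(normalized reads + 1) over the 6 libraries at 15 DAF. Red points are the 62 entries higher in 8107, blue points the 27 lower and grey points the 306 that did not pass; ahy-miR3508 combined a mean of 4428 normalized reads in 8107 with a difference of 3.76.

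The classes did not contribute alike. Among the known entries, 102 of them left out by the filter, 37 were higher and 8 lower in 8107, with a median log2 difference of 0.12, and among 66 hairpin arms 16 were higher and 4 lower (median 0.17). Among 158 predicted candidates 9 were higher and 15 lower (median -0.58). Libraries of 8107 listed 42.3 to 54.5% of all entries at 0, against 36.0 to 44.0% in 8106. The part of values at 0 in the class difference was not tested. Higher calls made up 21.6% of tested known entries, 24.2% of arms and 5.70% of candidates, against 15.7% of all tested entries. Lower calls made up 4.68, 6.06 and 9.49% in the same order, against 6.84%. With median centring the medians of known entries and arms were -0.12 and -0.08. By length, 38 of the 62 higher entries were 21 nt long (61.3%), against 41.0% of all tested, and 13 of the 27 lower entries were 22 nt long (48.1%), against 18.2% of all tested. A 5′ T stood in 32 of the 62 higher, 12 of the 27 lower and 150 of all tested entries.

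Members of the families miR397, miR398 and miR408 were all higher in 8107 where they could be tested. In plants these families are known to rise when copper is scarce and to repress copper proteins: miR398 acts on copper and zinc superoxide dismutases, miR397 on laccases, which polymerize lignin, and miR408 on blue copper proteins. Of the 14 entries of these families 8 passed the filter on low values and 8 of the 8 were called higher, with a median log2 difference of 3.40; the other 6 were low in every library. A member that passes such a filter through the line in which it is high is likely to differ, so this count is read as a description. Beside it stand 62 higher calls among all tested entries (15.7%) and a median of -0.09. With median centring 6 of the 8 passed (75%, against 6.33% of all tested entries higher). Under quantile normalization 7 passed (87.5%, against 10.9%). Summed over the 14 entries, the libraries held 2403 to 3891 normalized reads in 8107 and 524 to 721 in 8106, without overlap.

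The 3 libraries of 8107 held 646, 920.4 and 798 normalized reads of ahy-miR398_R+1, against 52.1, 72.0 and 58.8 in 8106. The lowest library of 8107 was well above the highest of 8106, and the log2 difference was 3.67 ± 0.33 (SE; limma adjusted p = 3.04e-05). Its near relative mtr-miR398b, which shares the seed and differs by A15G and T21G (the base in ahy-miR398_R+1 first, counted from 1 at the 5′ end), stood at 1375, 2414 and 1579 in 8107, against 437, 565 and 513 in 8106. That difference was smaller, 1.79 ± 0.27 (limma adjusted p = 0.00105), and again the lines did not overlap. The other arm of a miR398 hairpin, ahy-MIR398-p5_1ss9CA, was listed at 41.8, 23.3 and 33.0 in 8107 and at 0 in all 3 libraries of 8106 (limma adjusted p = 0.00552), so no fold is given. The arm gma-MIR398d-p3 stood at 31.3, 61.6 and 43.9 in 8107, against 19.1, 17.3 and 12.6 in 8106 (1.40 ± 0.36, limma adjusted p = 0.0221). Its call was lost with median centring, under quantile normalization and in most fits that left out 1 library. Of the 20 bases of ahy-MIR398-p5_1ss9CA 14 can form Watson-Crick pairs with ahy-miR398_R+1.

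The laccase regulator mtr-miR397-5p stood at 119, 226 and 111 normalized reads in 8107, against 15.8, 22.2 and 20.1 in 8106. Its highest value was in library 2 of 8107, and the lowest library of 8107 still exceeded each library of 8106 (log2 difference 2.84 ± 0.31, limma adjusted p = 0.000119). ahy-miR408-3p was read at 30.9, 44.5 and 37.4 in 8107; in 8106 one library listed it at 0 and the others at 6.23 and 10.5. It passed with a log2 difference of 3.13 ± 0.88 (limma adjusted p = 0.0276), a call that was lost with median centring. The forms ahy-miR408-3p_L-1R+1_1 and ahy-miR408-3p_L-1R+1_2, which share all their values and count as 1 measurement, stood at 68.4, 87.0 and 65.2 in 8107, against 0, 15.9 and 5.04 in 8106, with a log2 difference of 3.98 ± 1.01 (limma adjusted p = 0.0203). These miR408 calls were also lost in at least 4 of the 6 fits that left out 1 library. The authors' deposited degradome table listed PYRE-F for miR397 (best alignment score 3, where 0 is the best match), PBS1, Prep and PERK10 for miR398 and EMB1144 for 1 miR408 form, and gave no laccase or superoxide dismutase symbol for them.

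Of the miRNAs registered in Arachis, ahy-miR3508 had the clearest difference among known entries. It was read 3831, 4822 and 4631 times in 8107, against 277, 369 and 337 in 8106, a log2 difference of 3.76 ± 0.21 (limma adjusted p = 1.36e-06). Every library of 8107 was above every library of 8106, and the log2 difference was 3.51 to 3.87 over all the alternative settings. Of the 29 entries of these Arachis families 16 were tested and 4 were higher (25%, against 15.7% of all tested entries). The median of the 16 was -0.09. With the replicate block 5 were higher and 4 lower (31.25 and 25%, against 23.0 and 13.7% of all tested entries). The arms ahy-MIR3511-p5 and ahy-MIR3516-p5 were among the 4 that were higher without the block. ahy-MIR3511-p5 stood at 44.6, 61.6 and 62.8 in 8107, against 0, 12.5 and 10.1 in 8106 (log2 difference 3.42 ± 1.05, limma adjusted p = 0.0406). ahy-MIR3516-p5 stood at 126, 163 and 148 in 8107, against 37.2, 36.7 and 25.2 in 8106 (2.12 ± 0.67, limma adjusted p = 0.0451). Both calls lay near the threshold and were lost with median centring and when 1 library was left out (in 5 of the 6 such fits for the first and in all 6 for the second). In the degradome table each had a site with the best score, 0: ahy-MIR3511-p5 in 1 transcript of DML2 and 1 of ROS1, and ahy-MIR3516-p5 in 1 of ROS1. DML2 and ROS1 are DNA glycosylases that remove methylated cytosine from DNA.

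**Figure D2:**
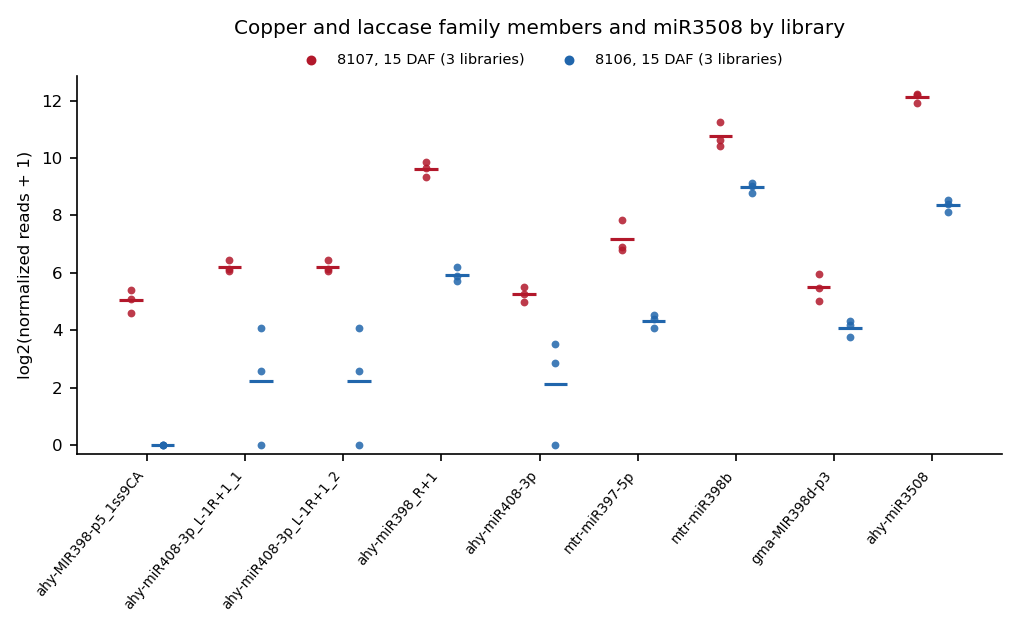
Points give log2(normalized reads + 1) in each library at 15 DAF for the 8 tested members of the copper and laccase families and for ahy-miR3508, with 8107 in red left of 8106 in blue; bars are the means of 3 libraries. In each of the 9 columns the points of 8107 lie above those of 8106, and the 3 libraries of 8106 lie at 0 for ahy-MIR398-p5_1ss9CA.

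The list of families that regulate growth and organ form was the longest. It held miR159 (GAMYB factors), miR164 (NAC factors), miR165 and miR166 (class III HD-ZIP factors of leaf polarity and the meristem), miR169 (NF-Y subunits), miR171 (SCL6 factors), miR319 (TCP factors that limit cell division) and miR396 (growth-regulating factors). Of its 100 entries 69 were tested, 19 were higher (27.5%) and 4 lower (5.80%), against 15.7 and 6.84% of all tested entries, with a median log2 difference of 0.38. With median centring 6 were higher and 5 lower (8.70 and 7.25%, against 6.33 and 9.11% of all tested entries). Under quantile normalization 12 were higher and 5 lower (17.4 and 7.25%, against 10.9 and 9.87%).

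miR319 was the clearest of these families. mtr-miR319a-3p_R+1_2 stood at 1287, 1603 and 1380.5 normalized reads in 8107, against 239, 392.8 and 305 in 8106, a log2 difference of 2.21 ± 0.30 (limma adjusted p = 0.000593). gma-miR319f_R+1 stood at 245, 268 and 242 in 8107, against 39.0, 58.9 and 55.0 in 8106 (2.30 ± 0.27, limma adjusted p = 0.000157). The lines were far apart in both, and the libraries of a line lay close together. gma-miR319d_L+1R-2, with 633, 701 and 623 in 8107 against 185, 268 and 227 in 8106, differed by 1.54 ± 0.26. Of 4 tested entries with the seed TGGACTG 3 were thus higher, against 15.7% of all tested entries. The form shifted by 1 base at the 5′ end, mtr-miR319a-3p_L+1_1ss21CT, was also higher. It stood at 2723, 3239.8 and 2612 in 8107, against 967, 1433 and 1274 in 8106 (1.23 ± 0.29, limma adjusted p = 0.0143). Its call was lost with median centring. Summed over 5 entries, the family held 4900, 5824 and 4881 in 8107, against 1438, 2152 and 1867 in 8106 (1.53 ± 0.29), and passed under all the other settings. The degradome table listed TCP2, TCP3 and TCP4 transcripts for the 3 unshifted forms, with best scores of 2.5 to 3.5, and for the shifted form GAM1 (best score 4) and wdr82-b.

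The miR156 forms separated by sequence. miR156 acts on SPL transcription factors and holds plants in the juvenile phase. mdm-miR156a_1ss11GA stood at 741, 1098 and 919 normalized reads in 8107, against 149, 276 and 182 in 8106 (log2 difference 2.21 ± 0.32, limma adjusted p = 0.000867). mtr-miR156b-5p, which differs from it only by G11A (the base in mtr-miR156b-5p first), stood at 227, 416 and 326 in 8107, against 69.7, 138 and 94.2 in 8106 (1.68 ± 0.44, limma adjusted p = 0.0226). Its call was lost with median centring and in most fits that left out 1 library. In both the lines did not overlap, and library 2 was the highest of each line. The most abundant form, mtr-miR156e, whose seed is shifted by 1 base, stood at 1326, 1639 and 1640.4 in 8107, against 1266, 1724 and 1510.9 in 8106, with full overlap (0.04 ± 0.22, limma adjusted p = 0.976). Of 4 tested entries with the seed GACAGAA 3 were higher, against 15.7% of all tested entries. For mtr-miR156b-5p the degradome table listed SPL3, SPL6, SPL9, SPL12 and SPL13A, each with a best score of 1.

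Precursor partners of miR156 moved both ways. ptc-MIR156b-p3_1ss13TC stood at 139, 161.6 and 155 normalized reads in 8107, against 26.03, 42.9 and 31.9 in 8106 (log2 difference 2.17 ± 0.25). The predicted PC-3p-646_6682, of whose 22 bases 13 can form Watson-Crick pairs with mtr-miR156b-5p, stood at 588, 637 and 616 in 8107, against 161.7, 189 and 158.6 in 8106 (1.85 ± 0.34). gma-MIR156u-p3 in contrast gave 0 in each 8107 library, against 14.9, 13.9 and 12.6 in 8106 (limma adjusted p = 0.00507). Of the 34 entries of miR156, miR157 and miR172 (which acts on AP2-like factors) 25 were tested, 5 higher and 3 lower with a median of 0.00. With the replicate block 9 were higher and 4 lower (36 and 16%, against 23.0 and 13.7% of all tested entries). Without the block the shares were 20% higher and 12% lower, against 15.7 and 6.84% of all tested entries. The main mature miR172, mtr-miR172d-3p_R+1, stood at 2727, 3521.2 and 3253 in 8107, against 2879.9, 3266 and 3304 in 8106, and did not pass.

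Both tested mature miR396 forms were higher. lja-miR396 stood at 788, 734 and 691 normalized reads in 8107, against 336, 363 and 378 in 8106 (log2 difference 1.04 ± 0.18, limma adjusted p = 0.0027). mtr-miR396a-5p, which differs from it by G21T (the base in lja-miR396 first), stood at 415, 527 and 449.8 in 8107, against 219.8, 288 and 241 in 8106 (0.89 ± 0.20, limma adjusted p = 0.0116). The arm lja-MIR396-p3 was higher as well, with 557, 486 and 515 in 8107 against 187, 186 and 216 in 8106 (1.40 ± 0.12, limma adjusted p = 3.04e-05), and kept its call under every scaling, whereas the calls of both mature forms were lost with median centring. The degradome table listed GRF1, GRF3, GRF4, GRF5 and GRF12 for lja-miR396, each with a best score of 3, and ACA12, a calcium-transporting ATPase, with a score of 2 for mtr-miR396a-5p.

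miR166 differed by less but at a far higher level. mtr-miR166a stood at 52742, 61968 and 60080.1 normalized reads in 8107, against 40612, 43850.0 and 42658 in 8106, a log2 difference of 0.46 ± 0.14 (limma adjusted p = 0.0406). The lines did not overlap, but the call was lost with median centring (0.21), under quantile normalization (0.35) and in 5 of the 6 fits without 1 library. The offset form mdm-miR166a_L+2R-2 stood at 2359, 2689.6 and 2945 in 8107, against 1073, 1120.0 and 1175 in 8106 (1.24 ± 0.11, limma adjusted p = 3.07e-05), and passed in every fit that left out 1 library and under every scaling. The opposite strand, mtr-miR166e-5p_2ss10GT11CT, stood at 174, 217 and 193 in 8107, against 34.4, 50.2 and 36.5 in 8106 (2.26 ± 0.22, limma adjusted p = 5.86e-05). ATHB-8, ATHB-14, ATHB-15 and REV, class III HD-ZIP genes, were listed for mtr-miR166a with best scores of 2.5 to 3.

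Single entries of miR159 were called in both directions. The most abundant forms did not pass: ahy-miR159 stood at 16299, 20034 and 16707 normalized reads in 8107, against 9306, 12551 and 11129.6 in 8106 (log2 difference 0.69 ± 0.27, limma adjusted p = 0.0993, and 0.00888 with the replicate block, where it was called higher). mtr-miR159a_1ss21AT overlapped between the lines (0.07 ± 0.27), and the sum of the mature forms did not pass (0.23 ± 0.26). The longer form mtr-miR159a_L+1_1ss22AT was lower, at 257, 242 and 231 in 8107 against 326, 292 and 323 in 8106 (-0.36 ± 0.10, limma adjusted p = 0.0276), a call lost with equal totals and in 4 of the 6 fits without 1 library. The opposite strand gma-miR159a-5p_2ss19TA20TA was lower in 8107, at 229.8, 233 and 223, against 769, 705 and 739 in 8106 (-1.69 ± 0.14, limma adjusted p = 2.39e-05), and its log2 difference lay between -1.93 and -1.57 over all the alternative settings. A minor form, mtr-miR159b_R-1_1ss7GT, was higher, at 50.3, 99.98 and 65.2 in 8107 against 11.2, 15.9 and 8.81 in 8106 (2.47 ± 0.67, limma adjusted p = 0.0239). Its call was lost with median centring and in 4 of the 6 fits without 1 library. Within miR171, which acts on SCL6 factors of the GRAS family, mdm-MIR171f-p3 stood at 908, 1121 and 968 in 8107, against 519.9, 590.3 and 553 in 8106 (0.84 ± 0.14, a call lost with median centring), with SCL6 listed at a best score of 1, while the arm ptc-MIR171m-p5_1ss17CT was lower (688, 660.1 and 658 in 8107, against 1042, 892 and 957 in 8106; -0.52 ± 0.11). gma-miR169e_L+3R+1 was lower too, at 69.3, 56.8 and 64.0 in 8107 against 201, 102 and 175 in 8106 (-1.26 ± 0.34, limma adjusted p = 0.0232), a call lost in 4 of the 6 fits without 1 library. mtr-miR164a overlapped between the lines, at 8327 ± 1609 in 8107 and 8137 ± 985 in 8106 (SD, n = 3 each).

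**Figure D3:**
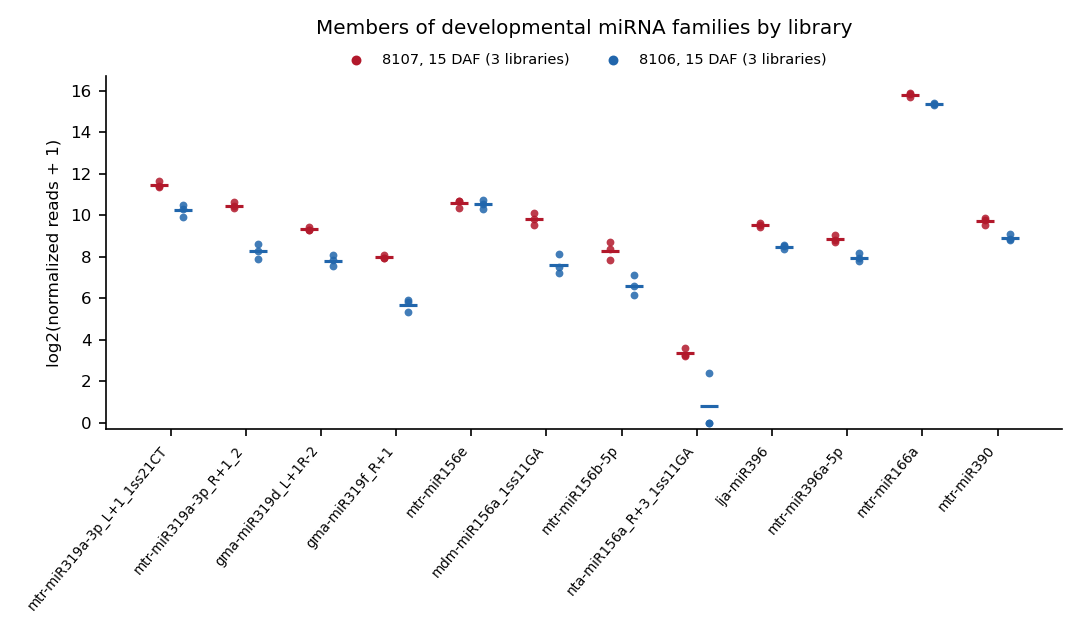
Points give log2(normalized reads + 1) in each library at 15 DAF for 12 members of miR319, miR156, miR396, miR166 and miR390, with 8107 in red left of 8106 in blue; bars are the means of 3 libraries. The points of the lines are apart in 11 columns and overlap for mtr-miR156e.

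In the auxin families, miR160 and miR167, which act on auxin response factors, miR390, which starts the making of small interfering RNAs against such factors, and miR393, which acts on auxin receptors, 22 of 31 entries were tested, 3 higher and 1 lower (median -0.06), shares of 13.6 and 4.55% against 15.7 and 6.84% of all tested entries. With the replicate block 3 were higher and 3 lower (13.6% each, against 23.0 and 13.7% of all tested entries). ahy-miR167-5p, the most abundant entry at this stage, stood at 182635, 213654 and 187910.0 normalized reads in 8107, against 203913, 218322 and 216991 in 8106, and did not pass (log2 difference -0.13 ± 0.14, limma adjusted p = 0.565). mdm-miR167b, which differs from it by T21A (the base in ahy-miR167-5p first), was higher, at 836, 1096 and 867 in 8107 against 415, 512 and 463 in 8106 (1.00 ± 0.19, limma adjusted p = 0.00457; lost with median centring). gma-miR167c_L+1_1ss22GT, with 1 more base at the 5′ end, was lower, at 977, 1024 and 841 in 8107 against 1484, 1332 and 1539 in 8106 (-0.62 ± 0.12, limma adjusted p = 0.00466). So 3 closely related sequences of this family had no call, a higher call and a lower call. mtr-miR390 stood at 730.1, 921 and 869 in 8107, against 443, 547 and 465 in 8106 (0.79 ± 0.19, limma adjusted p = 0.0169). Its call was lost with median centring, under quantile normalization and in most fits that left out 1 library. mtr-miR160a overlapped between the lines, at 3922 ± 682 in 8107 and 3206 ± 471.5 in 8106 (SD, n = 3 each).

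The families miR482 and miR2118, which act on NB-LRR immune receptor transcripts and start phased small interfering RNAs, held the most abundant entry that was lower in 8107. gma-miR482b-3p stood at 133822, 100758 and 132338 normalized reads in 8107, against 210177, 165779 and 193079 in 8106, and the lines did not overlap (log2 difference -0.64 ± 0.20, limma adjusted p = 0.0406). The call was lost with equal totals (-0.52), under quantile normalization (-0.28) and in 5 of the 6 fits without 1 library, and the degradome table gave 1 transcript without a symbol for it. The arm gma-MIR2118a-p5_2ss2AG20GT was lower with no such loss, at 177, 196 and 183 in 8107 against 591, 479 and 577 in 8106 (-1.56 ± 0.14, limma adjusted p = 3.04e-05). nta-miR482a_L+2_1ss5TC gave 0 in each 8107 library, against 29.7, 6.93 and 18.5 in 8106. Its call was lost in 5 of the 6 fits without 1 library, with a pseudocount of 10 and without the filter. Of 29 entries of the NB-LRR families 15 were tested, 2 higher and 3 lower (median -0.11). With the replicate block 5 were higher and 4 lower (33.3 and 26.7%, against 23.0 and 13.7% of all tested entries). Without the block the shares were 13.3% higher and 20% lower, against 15.7 and 6.84% of all tested entries.

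The nutrient families were miR395 (ATP sulfurylase), miR399, miR827 and miR2111 (phosphate). Of their 23 entries 10 were tested and 1 was lower (10%, against 6.84% of all tested entries). It was mtr-miR395a_L-1, with 5.22, 13.7 and 4.43 normalized reads in 8107 against 27.9, 36.4 and 35.7 in 8106 (log2 difference -2.11 ± 0.43, limma adjusted p = 0.00677). It was a low entry, and the more abundant mtr-miR395a_L+1R-1_1ss21TC stood at 177, 248 and 219.8 in 8107, against 176, 231 and 214 in 8106, and overlapped. APS1, an ATP sulfurylase, was listed in the degradome for both, with best scores of 2 and 3.5. Of the families that act on small RNA enzymes, miR162 (DCL1), miR168 (AGO1), miR403 (AGO2) and miR1515, 11 of 15 entries were tested with limma. None passed, and 1 was lower at an unadjusted p under 0.05. With the replicate block 3 were lower (27.3%, against 13.7% of all tested entries). gma-miR168a stood at 10942, 14418 and 12204 in 8107, against 13765, 17659 and 15411 in 8106 (-0.32 ± 0.25).

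Among the other legume families 19 of 38 entries were tested and 2 were higher (10.5%, against 15.7% of all tested entries). With the replicate block 6 were higher (31.6%, against 23.0% of all tested entries). Neither of the 2 passed with median centring, and both calls were lost in most fits that left out 1 library. gma-miR4376-5p_R-1_2ss16AG21GA stood at 227, 340.3 and 281 normalized reads in 8107, against 111, 178 and 131 in 8106 (log2 difference 1.02 ± 0.27). gma-miR1511_R-2, an 18 nt form, stood at 1066, 3765 and 1706 in 8107, against 203, 685 and 380.2 in 8106 (2.34 ± 0.69, limma adjusted p = 0.0358). Library 2 was the highest of each line for this short form, and the full-length gma-miR1511_R+1_1 did not pass (0.38 ± 0.26). ppe-MIR858-p5, of a family that acts on MYB factors of the flavonoid pathway, stood at 84.5, 123 and 97.4 in 8107, against 40.0, 53.7 and 46.6 in 8106 (1.10 ± 0.27, a call lost with median centring and in 3 of the 6 fits without 1 library), with MYB12 (score 3) and TT2 (score 4) in the degradome table.

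Entries that resemble pieces of transfer or ribosomal RNA, fixed as a list of their own because such pieces can come from breakdown, also moved with the line. Of 44 such entries 17 were tested and 7 were higher (41.2%, against 15.7% of all tested entries). The median of the 17 was 0.75, and 3 of the 7 share 1 set of values. With the replicate block 9 were higher (52.9%, against 23.0%) and with median centring 2 (11.8%, against 6.33%). Summed over the list, libraries held 2626 to 2949 normalized reads in 8107 and 1076 to 1795 in 8106. peu-MIR2916-p5_1ss5AG stood at 234, 284 and 311 in 8107, against 14.9, 42.2 and 26.02 in 8106 (log2 difference 3.38 ± 0.44). gma-miR6300, 18 nt long, stood at 323, 1274 and 567 in 8107, against 38.1, 179 and 80.6 in 8106 (2.89 ± 0.83, limma adjusted p = 0.0305). Its call was lost with median centring and in most fits that left out 1 library. Entries of 18 or 19 nt together took 0.275, 0.907 and 0.438% of the listed reads in 8107, against 0.0501, 0.173 and 0.0905% in 8106, so the lines did not overlap and library 2 was highest in each. These short and fragment-like reads were higher in the same libraries as the miRNAs called higher, and their part in those results was not tested. Entries of 18 or 19 nt also lie below the gel fraction of 22 to 30 nt given in the labels.

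Of the 9 tested entries listed at 0 in every library of only one line at 15 DAF, 6 were predicted candidates. PC-3p-4234_1541 stood at 352, 311 and 378 normalized reads in 8107, and each 8106 library gave 0. PC-5p-34874_230, from the same hairpin, stood at 46.5, 31.5 and 38.7 in 8107 and at 0 in 8106. Of the 22 bases of each, 17 can form Watson-Crick pairs with the other, and both passed under every setting. In the other direction PC-5p-119064_59 was listed at 0 in 8107 and at 25.1, 20.1 and 31.1 in 8106, and PC-3p-89854_85 at 0 in 8107 and at 27.0, 6.93 and 17.6 in 8106. In all, 3 tested entries were listed at 0 in each library of 8106 and above 0 in each library of 8107, and 6 were the reverse. The 6 stood between 4.16 and 31.1 in 8106 libraries, and the fitted differences of all 9 depend on the pseudocount. The call of PC-3p-89854_85 was also lost in most fits that left out 1 library.

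**Figure D4:**
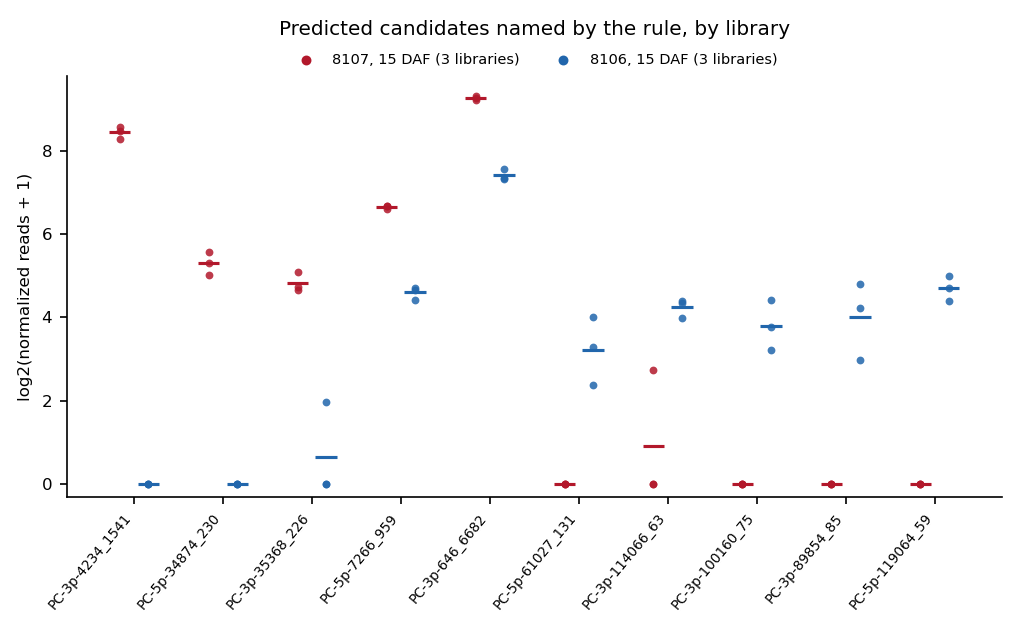
Points give log2(normalized reads + 1) in each library at 15 DAF for the 5 predicted candidates with the highest and the 5 with the lowest log2 differences among those called, with 8107 in red left of 8106 in blue; bars are the means of 3 libraries. PC-3p-4234_1541 and PC-5p-34874_230 lie at 0 in the 3 libraries of 8106.

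Hairpins with both arms listed gave 24 pairs, of which 17 had both arms tested. In 1 pair both arms were higher, the pair just described, and in 1 both were lower: PC-5p-2193_2613, with 160.4, 190.4 and 174 normalized reads in 8107 against 334, 307 and 349 in 8106 (log2 difference -0.91 ± 0.12), and PC-3p-19324_398, with 41.8, 26.02 and 33.8 in 8107 against 123, 94.2 and 89.0 in 8106 (-1.57 ± 0.30). In 2 pairs 1 arm was called, and in 13 neither was.

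Because isoforms of a family can hold each other's reads, known entries and arms were also summed by family and strand, and the same fit was run on 98 sums. Of these 28 were higher in 8107 (28.6%) and 5 lower (5.1%), with 11 lower under the replicate block. With median centring 9 were higher. Those 9 were the mature miR319, miR397, miR398 and miR3508 sums, the arms of miR319, miR398 and miR156, and both miR2916 arms, and each also passed in all the other settings in which it was tested. Under quantile normalization 17 sums were higher and 22 lower. Of the 5 lower sums 1, the gma-MIR2118a arm, passed in every setting. The sum of mature miR398 stood at 2026, 3334 and 2377 normalized reads in 8107, against 489, 637 and 572 in 8106 (log2 difference 2.16 ± 0.30, limma adjusted p = 0.000341). The miR166 sum of 13 entries stood at 71710.4, 84494 and 81492 in 8107, against 54739, 59327 and 57119 in 8106 (0.47 ± 0.14), and did not pass with median centring. Lower were the sums of miR169 (147 ± 17.2 in 8107 and 256 ± 54.5 in 8106, SD, n = 3 each), gma-miR482b-3p and its relatives, the gma-MIR2118a arm, an arm of miR171 and ahy-MIR3510-p5_1ss22GT.

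The length make-up of the listed reads followed the same division. The labels give a gel fraction of 22 to 30 nt, so 21 nt lies below its lower edge and 22 nt at it. The part of size selection in these shares was not tested. Reads of 21 nt took 66.2, 75.0 and 68.5% of the listed reads in 8107, against 54.9, 65.3 and 59.8% in 8106. Reads of 22 nt took 30.8, 21.7 and 28.6% in 8107, against 42.4, 32.7 and 37.9% in 8106. For 21 nt the highest 8106 library lay just below the lowest 8107 library, and for 22 nt the lines did not overlap either. The mean differences were 9.91 and -10.6 percentage points (exact two-sided permutation p = 0.1 for each, the smallest that 3 against 3 allows; 0.2 adjusted over 6 lengths), so the test cannot pass at this size. Within the same replicate number the 21 nt share was higher in 8107 by 11.3, 9.71 and 8.71 points. gma-miR482b-3p is 22 nt long and abundant, so its reads are a large part of the 22 nt share. Its difference and that of the share therefore overlap and are not independent results. Without the 2 most abundant entries, gma-miR482b-3p among them, the 22 nt difference was -8.82 points (exact two-sided permutation p = 0.2).

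The line difference at 15 DAF was then set beside that at 35 DAF, which comes from other libraries of the same lines. The listed reads at 35 DAF summed to 464658 to 527704 in 8107 and to 998924 to 1086380 in 8106, so values at that stage depend on the scaling more than those at 15 DAF. At 35 DAF 207 of the tested entries passed (52.4%), 127 higher (32.2%) and 80 lower (20.3%), and in 208 (52.7%) the lines did not overlap, 127 higher (32.2%) and 81 lower (20.5%). Of the 62 entries higher at 15 DAF 30 were higher at 35 DAF, 12 were lower and 20 did not pass. Of the 27 lower entries 9 were lower, 8 higher and 10 did not pass. The median log2 difference of the 62 was 1.46 at 15 DAF and 0.86 at 35 DAF, and that of the 27 was -1.56 and -0.22. Both sets were chosen by their 15 DAF difference, which also enters the test between the stages. That choice favours a smaller median at 35 DAF, so these medians and counts are read as a description. The difference between the stages' line differences itself passed for 41% of the tested entries, 18.7% with a larger value at 15 DAF and 22.3% with a smaller one, among them 42 of the 62 and 16 of the 27. With equal totals these shares were 8.10 and 39.5%. Of the 62, 43 were then higher and 4 lower at 35 DAF, and the median of the 62 at 35 DAF was 1.73. Of the 27, 26 were tested with equal totals, and 13 of them were higher and 6 lower at 35 DAF.

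Copper-family forms and miR3508 were among those with a larger line difference at 15 DAF. At 35 DAF ahy-miR3508 stood at 300.4, 379 and 252 normalized reads in 8107, against 143, 221 and 139.6 in 8106, and the line difference was larger at 15 DAF by 2.86 ± 0.30 on the log2 scale (limma adjusted p = 5.29e-05). ahy-miR398_R+1 stood at 250.5, 373 and 202 in 8107 at 35 DAF, against 147, 269 and 109.8 in 8106, where the lines overlap, and the stages differed by 2.96 ± 0.46 (limma adjusted p = 0.000542). With equal totals these stage differences were 1.92 for ahy-miR3508 and 2.03 for ahy-miR398_R+1, and both still passed. mtr-miR398b stood at 89.5, 120.0 and 83.3 in 8107 at 35 DAF, against 142, 230.1 and 127 in 8106. Its line difference at 35 DAF was -0.73 as deposited and 0.31, not passed, with equal totals, so its direction there depends on the scaling, while the stage difference passed under both (2.52 and 1.59). mtr-miR397-5p kept its direction, with 13.4, 13.4 and 14.4 in 8107 at 35 DAF and 0 in all 3 libraries of 8106, and the difference between stages did not pass (limma adjusted p = 0.0843), but with equal totals it was -1.40 and passed (limma adjusted p = 0.0209).

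Other entries had a larger line difference at 35 DAF. mdm-miR156a_1ss11GA stood at 2280.4, 3913 and 2115 in 8107 at 35 DAF, against 24.2, 42.2 and 23.7 in 8106, and the line difference at 15 DAF was smaller by a log2 value of -4.26 ± 0.45 (15 minus 35 DAF; limma adjusted p = 5.29e-05). mtr-miR319a-3p_R+1_2 stood at 1929.8, 3222 and 1784 in 8107 at 35 DAF, against 34.7, 72.3 and 44.1 in 8106 (-3.30 ± 0.43, limma adjusted p = 0.000193). ahy-MIR3516-p5 reached 2964, 3667 and 2658 in 8107 at 35 DAF, against 6.46, 8.04 and 0 in 8106. The direction turned for PC-5p-362_10574, which at 15 DAF stood at 852, 720.4 and 678 in 8107, against 1603, 1450.2 and 1701 in 8106, and at 35 DAF at 1501, 1398 and 1402 in 8107, against 126, 149 and 133 in 8106. It also turned for gma-miR1511_R-2, which was higher in 8107 at 15 DAF and at 35 DAF stood at 86.5, 278 and 103 in 8107, against 994, 3738 and 1082 in 8106. PC-3p-4234_1541 held, with 479, 369 and 436 in 8107 at 35 DAF and 0 in all 3 libraries of 8106.

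**Figure D5:**
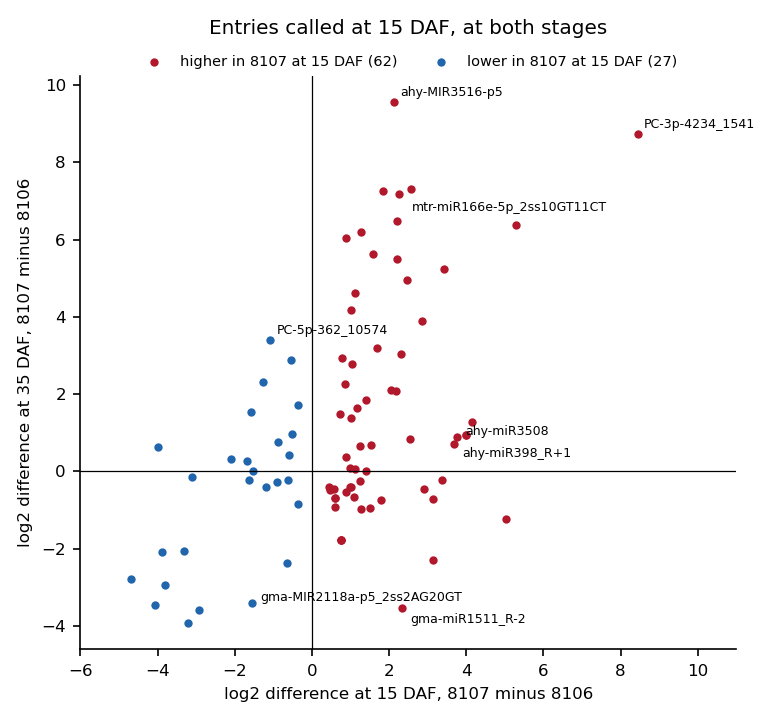
Each of the 89 entries called at 15 DAF is placed by its log2 difference (8107 minus 8106) at 15 DAF on the horizontal axis and at 35 DAF on the vertical axis. Of the 62 entries higher at 15 DAF (red) 23 lie below 0 at 35 DAF, and of the 27 lower ones (blue) 11 lie above 0.

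The degradome table gave at least 1 cleavage site for 34 of the 62 higher and 8 of the 27 lower entries. The share over all tested entries was not computed. Predicted candidates made up 9 of the 62 and 15 of the 27, so these counts are not set against each other. The degradome table does not say which line a site came from, so no target was compared between the lines.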

How the data were processed

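Per the labels' protocols, small RNA libraries from total seed RNA were made with the TruSeq kit from a gel fraction of 22 to 30 nt and read singly for 50 bases, and Bowtie appears, without a role, in the submitters' processing notes. The authors deposited a normalized signal per library (normalized reads); how it was normalized, and the build, are not given in the sources used here. From the second header line on, values of the deposited table sit 1 column further right, and each block was read by its own header line. The degradome alignment score is as the authors deposited it. Lines repeating a sequence were merged, from 1082 to 795 entries.

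limma 3.58.1 (R 4.3.3, with trend) was run on log2(value + 1), which understates low entries, with a mean for each of the 4 groups of line and stage and no block. The values are normalized and not counts, and the planned count test on recovered reads was not run. Alternatives were other pseudocounts, filters, scalings and library sets, and the replicate number as a block. Lengths were compared with scipy 1.17.1. The labels do not say whether replicates are separate plants, so p-values measure only how far these libraries spread, possibly for technical reasons. Same-numbered 15 DAF libraries of the lines deviated together (r = 0.42, 0.54 and 0.15 for numbers 1 to 3 across tested entries). With different numbers r ran from -0.48 to 0.26, the highest between replicate 3 of 8107 and replicate 1 of 8106. The pairing was therefore not clear for number 3. The block treats equal numbers as paired, and what a number shares is not given in the labels.

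Members and lists were chosen with earlier results of these data known. Named by rule were the most different entries of each class among those called without overlap, the 10 most abundant entries, the 3 most abundant tested members of each list and the 12 most different family sums; other entries were named after their values were seen. Family sums join known entries and arms that share a run of 8 bases. No genome was used, so positions are not given, and 0 of the 1196 degradome transcripts matched the gene reference table, so symbols are those of the authors' deposited table.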

Additional observations from a re-analysis of the deposited data

Results flagged for a closer look

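For 23 of the entries named by rule and called at 15 DAF, the line difference (8107 minus 8106) at 15 DAF differed from that at 35 DAF in a test of the difference itself (limma, adjusted p under 0.05). Values are given as the log2 difference at 15 DAF minus that at 35 DAF, and this was so for 41% of all tested entries. Listed reads at 35 DAF summed to 464658 to 527704 in 8107 and 998924 to 1086380 in 8106. With equal totals 19 of the 23 kept their call and 2 changed sign. The entries were taken from those called at 15 DAF, and the 15 DAF values also enter this test. The count is therefore read as a description.

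The line difference was more positive at 15 DAF than at 35 DAF for some members of the copper families and for miR3508. The values were 6.26 for ahy-MIR398-p5_1ss9CA, 2.96 for ahy-miR398_R+1, 2.52 for mtr-miR398b, 3.84 for ahy-miR408-3p and 2.86 for ahy-miR3508. The same held for the short or fragment-like entries peu-MIR2916-p5_1ss5AG (3.60), gma-miR6300 (3.36), gma-miR1511_R-2 (5.88) and vvi-MIR3630-p5_2ss18AG19CT (5.44), and for mtr-miR166a (0.93). With equal totals mtr-miR166a was at -0.01 and gma-miR6300 at 2.43, and neither passed. Other tested copper members did not pass as deposited: gma-MIR398d-p3 (1.40), the ahy-miR408-3p_L-1R+1 forms (3.03) and mtr-miR397-5p, in the other direction (-1.04). With equal totals gma-MIR398d-p3 (1.51) and mtr-miR397-5p (-1.40) passed. A lower level in 8107 was less marked at 15 DAF than at 35 DAF for gma-MIR2118a-p5_2ss2AG20GT (1.86; 0.92 with equal totals). As deposited the same held for gma-miR482b-3p (1.73) and mtr-miR159a_L+1_1ss22AT (0.47), but with equal totals the first did not pass (0.79) and the second passed in the other direction (-0.46).

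A higher level in 8107 was less marked at 15 DAF for mtr-miR166e-5p_2ss10GT11CT (-4.92), nta-miR156a_R+3_1ss11GA (-4.74) and PC-3p-646_6682 (-5.40). Entries lower in 8107 at 15 DAF whose difference at 35 DAF lay above 0 as deposited were mtr-miR172c-5p (-3.42), gma-miR169e_L+3R+1 (-3.58), ptc-MIR171m-p5_1ss17CT (-1.49), gma-MIR156u-p3_1ss22CT (-1.03), gma-miR159a-5p_2ss19TA20TA (-1.95), mtr-miR395a_L-1 (-2.43) and PC-3p-89854_85 (-4.64). Under median centring or quantile normalization the 35 DAF difference of gma-MIR156u-p3_1ss22CT, gma-miR159a-5p_2ss19TA20TA, mtr-miR395a_L-1 and PC-3p-89854_85 lay below 0 in at least 1 of these settings.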

How the results depend on the processing

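Each alternative changed 1 choice. For the line difference at 15 DAF the main counts were 89 entries, 62 higher and 27 lower. The replicate block gave 145 with 54 lower, median centring 25 higher, and using libraries numbered 1 and 3 only, an alternative chosen after seeing the data, 45 lower. The block ended none of the 89 calls. Leaving out 1 library gave 42 to 81 entries, 29 to 54 higher and 13 to 29 lower. Of the 62 higher entries 21, and of the 27 lower 12, passed under every setting in which they were tested. With equal totals the difference between stages was higher in 8.10% and lower in 39.5% of the tested entries, against 18.7 and 22.3%, and 10 of the 89 were lower at 35 DAF, against 21.

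The main fit called 33 family sums, 28 higher and 5 lower. Median centring called 16, 9 higher and 7 lower, so not all of its lower calls were among the 33. Quantile normalization gave 17 higher and 22 lower, equal totals 3 lower and the 6 libraries of 15 DAF alone 8 lower. The block and the libraries numbered 1 and 3 gave 11 lower each. Leaving out 1 library gave 13 to 31 sums, 12 to 26 higher and 1 to 5 lower. The miR156 arm sum of ptc-MIR156c-p3_1ss12AC changed sign under quantile normalization, 0.48 against -0.04.

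Without the 2 most abundant entries the differences in the shares of 21 and 22 nt were 8.47 and -8.82 points (exact two-sided permutation p = 0.2 each, against 0.1), and those of other lengths 0.665 points for 20 nt, -0.159 for 23 nt, -0.930 for 24 nt and -0.0562 for 25 nt; over known entries alone 23 nt gave -0.0629. Leaving out 1 library the difference was -0.0194 to 0.0973 points for 23 nt and -0.0290 to 0.0172 for 25 nt, against 0.0426 and -0.00543 with all libraries. The cause of these changes was not tested. A count test on recovered reads was not run. Values at or near the lowest listed level limit what can be said of entries at 0.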
